A study of Rattus norvegicus with 2 samples.

Results

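The genes described here are the nuclear and membrane receptors for estrogens, progesterone and adrenal corticosteroids, together with the enzymes that make estradiol or convert corticosterone inside tissue: Esr1, Esr2, Gper1, Pgr, Cyp19a1, Nr3c1, Nr3c2, Hsd11b1 and Hsd11b2. A probe was taken when its transcript accession matched one of these 9 rat genes in RefSeq, which gave 13 probes, and these 9 are among 16581 genes named on the array. The tissue was the solitary tract nucleus (NTS), the dorsal medullary centre that receives baroreceptor and other visceral input, of spontaneously hypertensive rats (SHR), an inbred strain that develops high blood pressure. The groups were female SHR and male SHR, both 9 weeks old and killed under ether, with no other treatment named in the labels and no normotensive strain among the samples. The dissected block reached from 0.5 mm caudal to 1.0 mm rostral of the calamus scriptorius, a landmark on the dorsal surface of the medulla. Each sex was 1 pool of equal amounts of RNA from 5 rats, read on 1 Agilent 1-colour array, so variation between animals could not be measured and differences carry neither a test nor a p-value.

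Steroid receptors of the nuclear family are transcription factors that bind DNA once a hormone has entered the cell. Esr1 and Esr2 encode the estrogen receptors alpha and beta, Gper1 encodes a membrane receptor that responds to estrogens, Pgr encodes the progesterone receptor and Cyp19a1 encodes aromatase, which makes estradiol from testosterone. Nr3c1 encodes the glucocorticoid receptor and Nr3c2 the mineralocorticoid receptor, which binds corticosterone as well as aldosterone. The enzyme encoded by Hsd11b2 inactivates corticosterone and so leaves the mineralocorticoid receptor open to aldosterone, whereas the enzyme encoded by Hsd11b1 mainly regenerates corticosterone. The rat NTS holds a small group of aldosterone-sensitive neurons, named HSD2 neurons after Hsd11b2, that are active in sodium deficiency.

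Of the 9 genes, 6 gave a signal well above background in both sexes: Gper1, Pgr, Nr3c1, Nr3c2, Hsd11b1 and Hsd11b2. Esr2 was well above background in female NTS only, and Esr1 and Cyp19a1 in neither sex. Hsd11b2, Nr3c2 and Pgr read higher in female NTS, by 1.32-fold, 1.23-fold and 1.42-fold, and Gper1, Nr3c1 and Hsd11b1 read higher in male NTS, by 1.17-fold, 1.09-fold and 1.14-fold. None of the 6 reached a 1.5-fold difference in either direction, where 2.29% of all 13424 genes measured on both arrays did, 1.5% on the female and 0.797% on the male side. At that background share fewer than 1 gene in 6 would be past the limit, so the count does not set these genes apart. The median difference of the 6 genes was 0.09 on the log2 scale, female minus male, beside 0.02 over all genes. It was -0.10 over all 9 genes with no filter on dim probes, and -0.12 over the 5 genes with probes above the 25th percentile of signal.

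Values below are scaled signals, on which the 75th percentile of each array is 100. Signals of different probes were not read against each other as transcript amounts, because each probe has its own efficiency. The sums over marker lists and the choice of the brightest genes depend on these efficiencies. The error beside a signal is the one that the scanner software, Feature Extraction, estimated for that spot. It covers the spot and not the animals, the pooling or the labelling. For brighter probes it was close to 10% of the signal on both arrays, as for Hsd11b2 and the brighter probe of Gper1. For dim probes it was larger, as for Pgr, at 11.0% in female NTS and 12.2% in male NTS. It is not a spread measured over repeated spots, because each probe of these genes had 1 spot. Errors of the arrays, of the probes of a gene and of contrasted genes were combined as if independent. A smaller error for a mean of probes is thus not a measured gain in precision. The pools are bulk tissue, in which fewer cells of a type and less RNA per cell cannot be told apart.

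**Figure D1:**
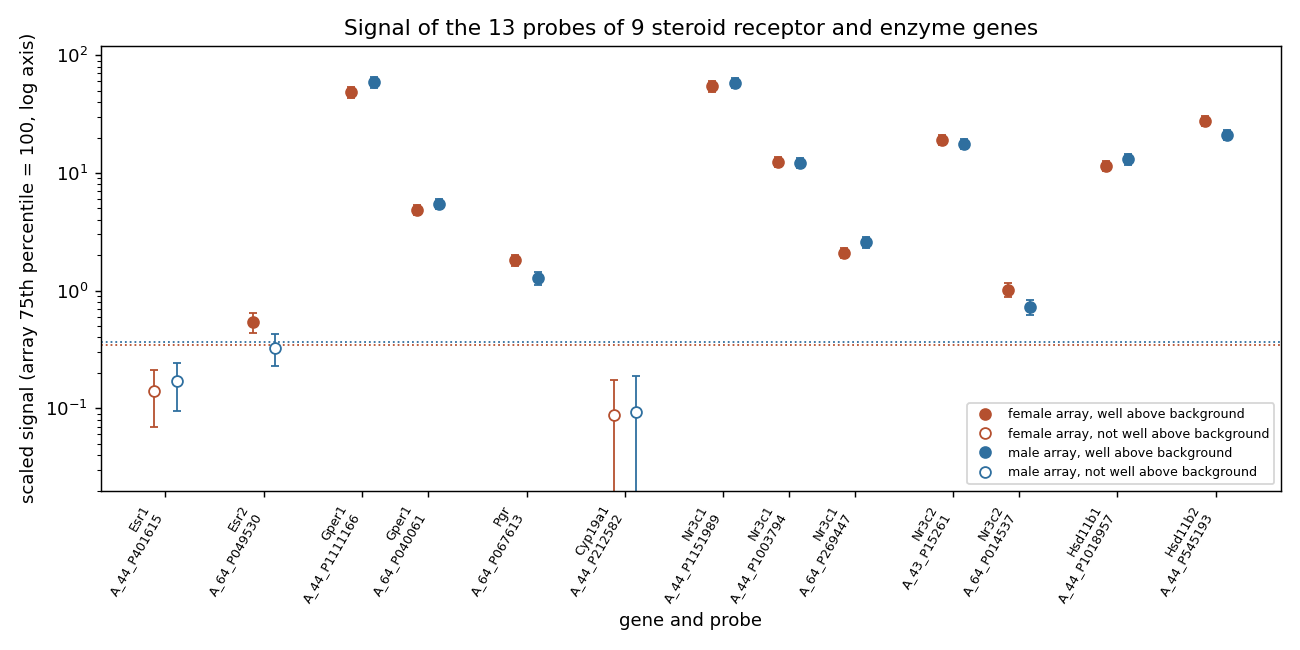
Scaled signal (log axis) of each of the 13 probes in female NTS (left point) and in male NTS (right point). Bars are the Feature Extraction error, which for Cyp19a1 is as large as the signal and runs off the axis; open points were not well above background, and dotted lines mark the lowest signal called well above background on each array. The probes of Esr1 and Cyp19a1 lie under these lines on both arrays, and the probe of Esr2 lies above them in female NTS only.

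The sexes of the pools were checked with Eif2s3y, which lies on the Y chromosome and encodes a translation initiation factor. It read 0.09 in female NTS, not well above background, and 22.4 in male NTS. The male signal was 65.0-fold the lowest one called well above background in female NTS. Ddx3y, a Y-linked RNA helicase gene, has 2 probes, of which 1 was measured in both sexes. That probe read 10.2 in female NTS and 24.3 in male NTS, a difference of -1.26 on the log2 scale. The other probe is not in this value, because requiring both sexes leaves out any probe without a female signal. Over 12 other ways of processing the arrays the difference of the gene lay between -3.47 and -1.05. On the arrays, 82.3% of the spots outside the controls were well above background in female NTS and 80.1% in male NTS, and no spot was saturated. Transcripts of the nucleus were present on both: Th, the gene of the first enzyme of catecholamine synthesis, read 532 in female NTS and 602 in male NTS, and Gal, the gene of the neuropeptide galanin, read 1418 in female NTS and 1265 in male NTS. Lists of markers of other cell types also differed between the arrays. Of 20 choroid plexus genes, 18 were measured and 17 were past 1.5-fold on the female side, with a summed scaled signal of 10099 in female NTS and 925 in male NTS. Most of that sum was Ttr, the transthyretin gene, and the other 17 genes summed to 773 in female NTS and 308 in male NTS. Of 10 red blood cell genes, 7 were measured and all 7 were past 1.5-fold on the male side, with a sum of 4911 in female NTS and 7755 in male NTS. Of 15 meningeal and fibroblast genes, 2 were past 1.5-fold on the female and 1 on the male side, with a median of 0.14 on the log2 scale. No gene of the other marker lists was past 1.5-fold, but several lists leaned to the male side: all 10 oligodendrocyte genes, with a median of -0.19, 9 of 10 neuronal genes, with a median of -0.05, and 9 of 10 endothelial and mural cell genes, with a median of -0.09. Ependymal, astrocyte and microglial genes had medians of 0.09, -0.01 and -0.04. The part of these cell types in the differences below was not tested.

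Of the estrogen receptor genes, both nuclear ones were at the lower limit of the array. The single probe matched to Esr1, A_44_P401615, read 0.14 ± 0.07 in female NTS and 0.17 ± 0.07 in male NTS (Feature Extraction error). The software called this signal positive against local background but not well above background on either array, so no difference is given. The single probe matched to Esr2, A_64_P049530, read 0.54 ± 0.10 in female NTS, where it was well above background, and 0.33 ± 0.10 in male NTS, where it was not. Set against the lowest signal called well above background in male NTS, the female signal of Esr2 was 1.48-fold higher. This bound leaves out the spot errors. Against the male signal as read, the difference was 0.72 on the log2 scale with an error of 0.52. Genes detected in female NTS alone were also the commoner kind across the array, at 2.79% of all named genes against 0.91% detected in male NTS alone.

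The membrane estrogen receptor gene Gper1 was read by a pair of probes, both well above background on both arrays. The brighter probe, A_44_P1111166, had a scaled signal of 48.5 ± 4.85 in female NTS and 59.0 ± 5.90 in male NTS. The dimmer one, A_64_P040061, had 4.84 ± 0.49 in female NTS and 5.47 ± 0.55 in male NTS. Both probes were therefore lower in female NTS, by similar amounts. The differences were -0.28 and -0.18 on the log2 scale, and their mean was -0.23 with an error of 0.15.

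The progesterone receptor gene Pgr, which estrogens induce in several reproductive and brain tissues, had 1 probe, A_64_P067613, well above background on both arrays. It read 1.82 ± 0.20 in female NTS and 1.28 ± 0.16 in male NTS. This was the largest difference among the 6 measured genes, at 0.51 on the log2 scale with an error of 0.24. The probe was dim, in the lowest 25% of the signal range, where the differences of all genes had an SD of 0.36 and 24.4% of genes were past a difference of 0.32 in either direction, a limit lower than 1.5-fold. With normexp background correction, a method that models local background and adds an offset to each signal, the difference was 0.11 and with no background correction it was 0.22.

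RefSeq promoter windows were at hand for 4 of the genes, Esr1, Esr2, Pgr and Nr3c1. Those of Pgr and Esr2 are printed because these were the receptor genes that stood highest in female relative to male NTS, Esr2 as a bound. Each window runs from 250 bases before to 50 bases after an annotated transcript start on the GRCr8 assembly, 5′ to 3′, on the plus strand at chr8:14354148-14354447 for Pgr and on the minus strand at chr6:100644660-100644959 for Esr2. Capitals mark matches on either strand to the GC box (GGGCGG), the CCAAT element, the TATA element (TATAAA), the half-site bound by estrogen receptors (AGGTCA), the half-site bound by corticosteroid and progesterone receptors (AGAACA) or the palindromic E-box (CACGTG). None of these motifs overlapped another in either window.
Pgr: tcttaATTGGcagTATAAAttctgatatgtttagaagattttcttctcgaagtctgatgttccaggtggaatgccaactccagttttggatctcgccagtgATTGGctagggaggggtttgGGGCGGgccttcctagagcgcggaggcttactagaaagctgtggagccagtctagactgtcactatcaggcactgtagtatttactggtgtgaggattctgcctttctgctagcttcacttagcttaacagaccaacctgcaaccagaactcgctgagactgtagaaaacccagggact
Esr2: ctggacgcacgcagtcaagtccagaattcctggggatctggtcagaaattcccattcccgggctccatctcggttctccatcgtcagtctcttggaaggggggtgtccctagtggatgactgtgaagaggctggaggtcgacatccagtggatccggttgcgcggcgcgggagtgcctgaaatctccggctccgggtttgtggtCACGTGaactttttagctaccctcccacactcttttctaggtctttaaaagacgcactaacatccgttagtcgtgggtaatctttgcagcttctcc

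In the Pgr window the GC box began 129 bases before the start, the CCAAT matches 245 and 149 bases before it and the TATAAA match 237 bases before it. In the Esr2 window the only match was the E-box, 46 bases before the start. Of all 33469 rat promoter windows of this length, 33.1% held GGGCGG, 37.5% CCAAT, 14.2% TATAAA and 6.42% CACGTG. Neither receptor half-site was found in any of the 5 windows of these 4 genes, while 16.2% of all windows held AGGTCA and 20.7% held AGAACA. Of the 2 windows of Nr3c1, 1 held 4 GC box matches and the other held 1, and the window of Esr1 had no match. No relation between these letters and the array values was tested.

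Aromatase, the enzyme of local estradiol synthesis, was not detected by the probe matched to its gene. The single probe matched to Cyp19a1, A_44_P212582, read 0.09 on both arrays, and the error estimated for it was as large as the signal. It was neither positive against local background nor well above background on either array.

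Among the corticosteroid receptors, the glucocorticoid receptor gene Nr3c1 had 3 probes above background on both arrays. The brightest, A_44_P1151989, read 54.5 ± 5.45 in female NTS and 58.3 ± 5.83 in male NTS. The next, A_44_P1003794, read 12.5 ± 1.3 in female NTS and 12.2 ± 1.2 in male NTS. The dimmest, A_64_P269447, read 2.10 ± 0.22 in female NTS and 2.59 ± 0.27 in male NTS. The 3 differences were -0.10, 0.03 and -0.30 on the log2 scale, so the probes did not share a direction. Their mean was -0.12 with an error of 0.12.

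The mineralocorticoid receptor gene Nr3c2 read higher in female NTS with both of its probes, each well above background on both arrays, but by unequal amounts. The brighter probe, A_43_P15261, had a scaled signal of 19.1 ± 1.91 in female NTS and 17.7 ± 1.77 in male NTS, a difference of 0.11 on the log2 scale with an error of 0.20. The dimmer probe, A_64_P014537, had 1.02 ± 0.14 in female NTS and 0.73 ± 0.11 in male NTS, a difference of 0.49 with an error of 0.29. The mean of 0.30 thus rested mostly on the dim probe. The gap of 0.38 between the probes was wide against other genes: over 3050 genes with several measured probes the median gap was 0.10 and the 90th percentile 0.35.

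The largest difference outside the dimmest 25% of the signal range among the 6 genes was that of the enzyme gene Hsd11b2, read by 1 probe, A_44_P545193, well above background on both arrays. Its scaled signal was 27.7 ± 2.77 in female NTS and 21.0 ± 2.10 in male NTS. The difference was 0.40 on the log2 scale with an error of 0.20. In the 25% band of the signal range that holds Hsd11b2, the SD of the difference over all genes was 0.16 and 2.38% of genes were past 0.32. Over 110 probes of that band with at least 8 repeated spots, the median SD of the difference was 0.05. The value ranged from 0.33 to 0.47 over 12 other ways of processing the arrays. Only the 6 that change the scaling or the background moved it by more than 0.01. The others left this 1 bright probe at 0.40. At a lower limit, a difference of 0.32 on the log2 scale, 2 of the 6 genes were called, Hsd11b2 and Pgr, both on the female side. Across the array 8.13% of genes passed that limit, 5.08% on the female and 3.05% on the male side.

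The enzyme gene with the opposite action, Hsd11b1, read lower in female NTS. Its 1 probe, A_44_P1018957, passed the background limit in both sexes, with a scaled signal of 11.4 ± 1.15 in female NTS and 13.1 ± 1.31 in male NTS, a difference of -0.19 on the log2 scale with an error of 0.20. The Hsd11b2 difference exceeded the Hsd11b1 difference by 0.59 on the log2 scale, with an error of 0.29. The Nr3c2 difference exceeded that of Nr3c1 by 0.43, with an error of 0.21. That error leaves out the gaps between probes of the same gene, 0.38 for Nr3c2 and 0.34 for Nr3c1. The same contrast was 0.74 for Pgr against Gper1, 0.10 for Hsd11b2 against Nr3c2 and -0.07 for Hsd11b1 against Nr3c1. Their errors were 0.28, 0.27 and 0.24. None of these contrasts was planned. Scaling factors common to an array cancel in these contrasts. Over the 12 other settings the enzyme contrast lay between 0.45 and 0.60 and the receptor contrast between 0.14 and 0.43. The lowest value of each came with normexp. Settings that only multiply an array by 1 factor could change neither contrast. Other probe filters and summaries could not change the enzyme contrast, because each enzyme gene had 1 probe. Most outcomes for the enzyme contrast were thus fixed in advance. H6pd, which encodes the enzyme that supplies NADPH to the Hsd11b1 protein and was singled out after its values were seen, read 2.39 in female NTS and 2.14 in male NTS, a difference of 0.16.

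**Figure D2:**
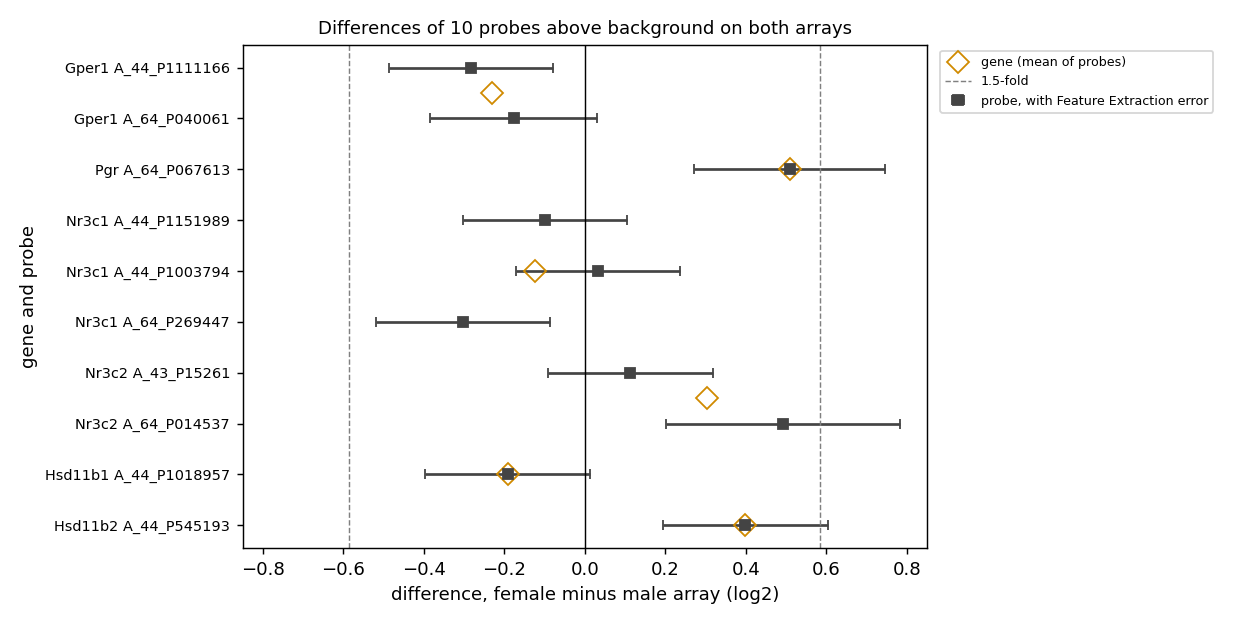
Difference between the arrays, female minus male on the log2 scale, for the 10 probes well above background on both (squares, with the Feature Extraction error) and the mean of each gene's probes (diamonds). Dashed lines mark 1.5-fold. Pgr, Nr3c2 and Hsd11b2 lie to the right of 0, Gper1 and Hsd11b1 to the left, and the probes of Nr3c1 on both sides.

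Genes of HSD2 neurons and of other neuron types of the nucleus were set beside Hsd11b2 and Nr3c2. Of 20 listed genes, 16 were measured, 10 of them higher in female NTS and 6 in male NTS, with a median of 0.12 on the log2 scale. The list holds Hsd11b2 and Nr3c2 themselves, and without these 2 genes 8 were higher in female NTS and 6 in male NTS, with a median of 0.06. None of the 16 was past 1.5-fold. Past 0.32 on the log2 scale were Hsd11b2 itself and Prlh, the gene of prolactin-releasing peptide, on the female side and Gcg, which encodes the GLP-1 precursor, on the male side; Prlh and Gcg were named after their values were seen. Prlh read 146 in female NTS and 110.1 in male NTS, a difference of 0.41, and Gcg read 30.3 in female NTS and 43.9 in male NTS, a difference of -0.53. Slc17a6, the glutamate transporter gene that HSD2 neurons share with many others, read 402 in female NTS and 370 in male NTS, a difference of 0.12. Foxp2, a transcription factor gene expressed in HSD2 neurons, was well above background in female NTS only. Its female signal was 1.09-fold the lowest one called well above background in male NTS, with spot errors left out. Slc17a6 and Foxp2 were also named after their values were seen.

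The other receptor genes for steroids and related ligands were centred near 0. Of 15 listed, 13 were measured, with a median of -0.02, and 1 was past 1.5-fold. This was Paqr5, which encodes a membrane progestin receptor, at 9.87 in female NTS and 5.82 in male NTS, a difference of 0.76 with probes at 0.75 and 0.78. With normexp it was 0.56, short of 1.5-fold. Vdr, the vitamin D receptor gene, read 2.29 in female NTS and 3.42 in male NTS, a difference of -0.58 just short of 1.5-fold, and the xenobiotic receptor gene Nr1i2 read 7.18 in female NTS and 5.30 in male NTS, a difference of 0.44. Both were named after their values were seen.

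Chaperones and coregulators, which fold steroid receptors or act with them at DNA, were all within the lower limit of 0.32. The 18 measured genes of 22 listed lay between -0.06 and 0.23 on the log2 scale, with a median of 0.00. Hsp90aa1, a chaperone that holds unliganded receptors, read 2876 in female NTS and 2974 in male NTS, and the co-chaperone gene Stub1 read 1344 in female NTS and 1369 in male NTS.

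Enzymes and carriers of steroid synthesis and clearance had about as many genes higher as lower. Of 37 listed genes, 25 were measured, 12 higher in female NTS and 13 in male NTS, with a median of -0.01 and none past 1.5-fold. Stard3, a cholesterol carrier gene, read 277 in female NTS and 265 in male NTS, and Hsd17b4, a gene of peroxisomal fatty acid and estradiol oxidation, read 260 in female NTS and 259 in male NTS. Sult1a1, a sulfotransferase gene, at 0.40, and the dim Cyp17a1, at 0.33, were past 0.32 on the female side and the dim Hsd3b2, at -0.55, on the male side, all named after their values were seen. A further 4 genes were well above background in female NTS only and none in male NTS only, beside 2.79% and 0.91% of all named genes. Their signals were near the detection limit. They were Akr1c14, which encodes a 3-alpha-hydroxysteroid dehydrogenase, Akr1c2, Cyp11b2, the aldosterone synthase gene, and Cyp11a1, which makes pregnenolone. Their female signals, from 0.50 to 0.67, were 1.83-fold, 1.85-fold, 1.60-fold and 1.37-fold the male limit, with spot errors left out. The male limit was the lowest male signal called well above background, or the gene's own male signal where that was higher.

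Genes known in some tissue as targets of these receptors were examined last. Among 16 measured estrogen and progesterone targets the median was 0.07, with 1 gene past 1.5-fold on each side. Prlr, the prolactin receptor gene, read 5.77 in female NTS and 0.74 in male NTS, a difference of 2.96 that was 1.13 with normexp, and it is also a choroid plexus marker. Oxtr, the oxytocin receptor gene, read 0.84 in female NTS and 1.30 in male NTS, a difference of -0.62 that was -0.17 with normexp. Among 23 measured corticosteroid targets the median was 0.06, with 16 genes higher in female NTS and 7 in male NTS. Zbtb16, a transcription factor gene induced by glucocorticoids, was the only one past 1.5-fold, at 1.70 in female NTS and 0.86 in male NTS, a difference of 0.98 that was 0.34 with normexp. Sgk1, a kinase gene induced by aldosterone and glucocorticoids, read 29.2 in female NTS and 28.1 in male NTS. The dim sodium channel subunit genes Scnn1a and Scnn1b, aldosterone targets in epithelia, differed by -0.09 and 0.11 on the log2 scale. Other targets differed by more: Klf9 by 0.30, the metallothionein genes Mt1 and Mt2A by 0.27 and 0.21, Per1 by 0.25, Klf15 by 0.24, Fkbp5 by 0.23 and Sult1a1 by 0.40 on the female side, and Pdk4 by -0.48, Ddit4 by -0.29 and Dusp1 by -0.23 on the male side. Prlr, Oxtr and Zbtb16 were named for being past 1.5-fold, and the other targets here after their values were seen.

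**Figure D3:**
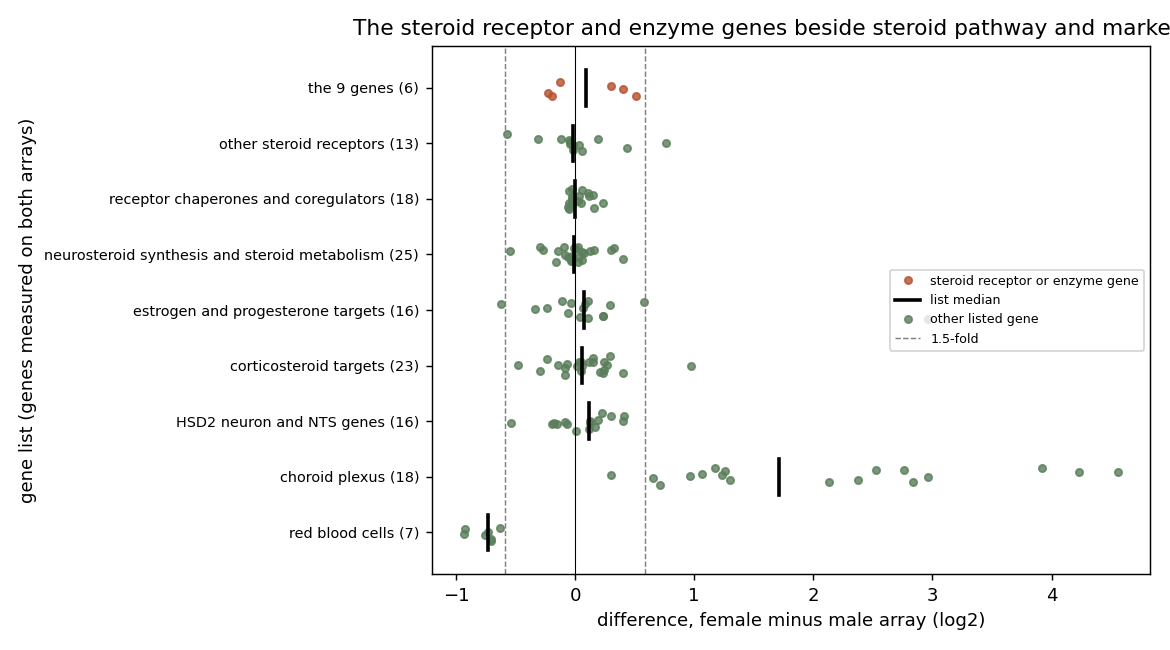
Difference between the arrays, female minus male on the log2 scale, of each measured gene (points) in the steroid receptor and enzyme set, 6 related lists and 2 marker lists, with list medians (black bars) and 1.5-fold limits (dashed). The 6 genes lie between -0.23 and 0.51, within the limits, while 17 of 18 choroid plexus genes lie beyond the limit on the female side and 7 of 7 red blood cell genes beyond it on the male side.

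The 6 measured genes kept the sign of their difference under each of the 12 other settings in which they had a value, and none passed 1.5-fold in any of these. Of these 71 values, 30 were within 0.01 of those reported on the log2 scale, many of them where the setting could not change them, such as another summary of a gene with 1 probe. The 6 settings that change the scaling or the background moved all 36 of their values by more than that. The differences of Pgr and Nr3c2 changed most between settings, and were 0.11 and 0.10 on the log2 scale with normexp.

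**Figure D4:**
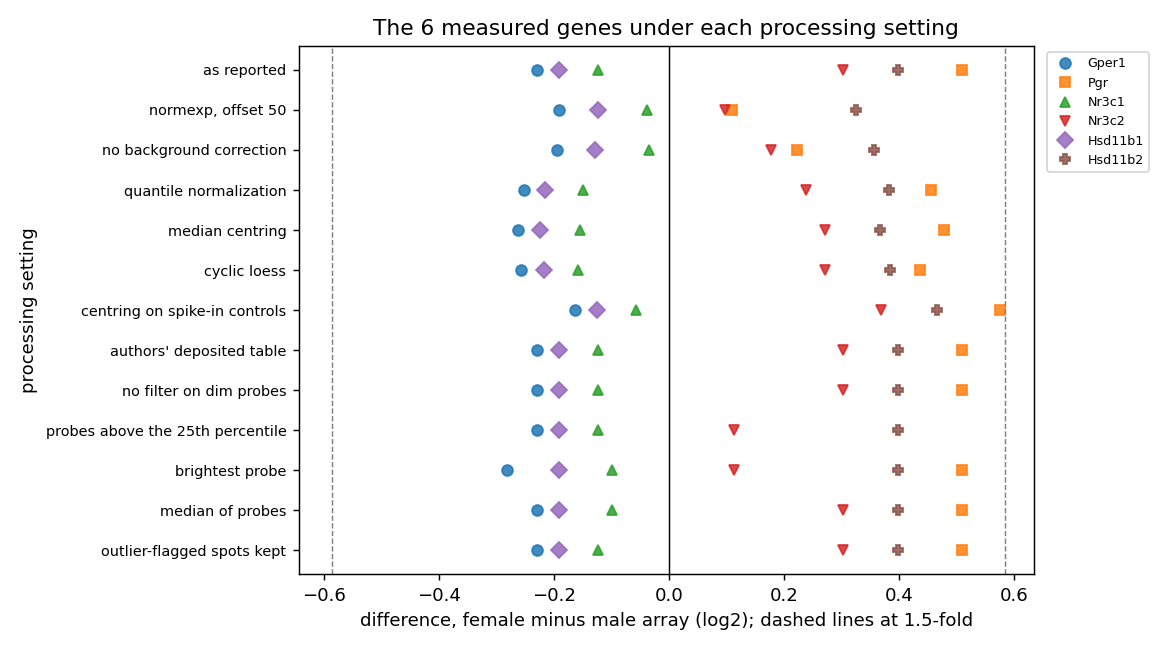
Difference between the arrays, female minus male on the log2 scale, of the 6 measured genes as reported and under 12 other processing settings, with dashed lines at 1.5-fold. Every point stays on its own side of 0 and within the dashed lines; Pgr lies between 0.11 and 0.58 and Hsd11b2 between 0.33 and 0.47.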

How the data were processed

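RNA of 5 rats per sex was pooled, 100 ng each, and 100 ng of each pool was labelled with Cy3, per the labels' protocols. The authors deposited spot intensities from Agilent Feature Extraction, already background-corrected (version 11.5.1.1 per the file headers, 9.1 per the submitters' processing notes). In the authors' deposited value table each column was the processed intensity over 1 constant, with column medians of 19.6 (female) and 19.4 (male), so it is linear and not centred by gene. The 75th percentile of each array was 100 times its constant to within rounding, which is the scaling used here. The likeness of this table to the reported values, as a setting, was therefore fixed in advance. The authors' table lists 11 of the 13 spots described here. Processed signals were put on the log2 scale and centred on the 75th percentile of their array. Control spots and outlier-flagged spots were left out and repeated spots averaged. A probe counted as measured when every spot of it was well above background in both sexes, and a gene was the mean of its measured probes. The array number limits precision. Accessions without versions were matched to RefSeq genes of GRCr8, which named 21109 of 45595 probes. Probes with Ensembl transcript identifiers could not be named, and further probes of the 9 genes may be among them. The array design uses another build, so no probe coordinates are given; the promoter coordinates are those of GRCr8.

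The members and lists were chosen with earlier results of these data known. Every member is named. From each other list, up to 3 genes past 1.5-fold are named, or the 2 brightest where none was; cell type markers are given as counts, and other genes are marked in the text as named after their values were seen. With 2 arrays no likeness of pattern between genes could be measured. Alternatives were normexp (offset 50) and no background correction, both on the median spot signal, quantile, median, cyclic loess and spike-in scaling, the authors' table, other dim-probe filters and gene summaries, outlier spots kept, and other folds. Functions were tested on simulated data. Python 3.11.15, numpy 2.4.6, pandas 2.3.3, R 4.3.3 and limma 3.58.1 were used.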

Additional observations from a re-analysis of the deposited data

How the results depend on the processing

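No paired analysis was possible because there is 1 sample of each sex. No member was past 1.5-fold except with no filter on dim probes, where 1 of 9, Esr2, was so on the female side, and at the lower limit of 0.32 on the log2 scale 2 of 6 were called. The median of the members, 0.09, lay between -0.12 and 0.16 over the 12 settings. It was above 0 in 10, and was -0.10 with no filter on dim probes and -0.12 above the 25th percentile of signal, where the dim Pgr is left out. Single gene values moved beyond their Feature Extraction error in 5 of the 41 cases in which they changed by more than 0.01, all in Pgr or Nr3c2. Over all genes, the counts past 1.5-fold, 201 on the female and 107 on the male side, were 37 and 33 with normexp, 50 and 38 with no background correction, 1134 and 513 with no filter on dim probes, and 59 and 52 above the 25th percentile of signal. At 0.32 they were 682 and 409, and at 2-fold 54 and 20. The female share of genes past 1.5-fold, 65.3%, was 46.6% after quantile normalization and 76.1% with spike-in scaling. Signal over background limits Esr1, Esr2, Cyp19a1, Pgr and the dim probe of Nr3c2.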
